A study of Mus musculus with 4 samples.

Results

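The RAS-RAF-MEK-ERK cascade was followed at the level of its mRNAs in 32Dcl3-Abl1ko cells. Its members were taken by gene symbol and were Nras, Hras, Araf, Braf, Map2k1, Map2k2 and Mapk3, which are 7 of the 23756 genes in the deposited table. All 7 passed the filter on low counts, which kept 16535 genes. The 32D line (32Dcl3) is a murine hematopoietic line that needs the cytokine IL-3 to survive. The study deleted Abl1 with CRISPR/Cas9, starved the cells of IL-3 and obtained growth factor-independent cells. Both groups analysed here carry the Abl1 knockout, and 2 libraries came from cells growing under IL-3 (Abl1ko/IL3+), the other 2 from the growth factor-independent cells, without IL-3 (Abl1ko/IL3-). The libraries of a group are described as biological duplicates. Presence of the cytokine and selection for growth without it cannot be told apart. The methods name single clones and the results name populations derived from 2 guides, and neither is tied to a library, so a difference between libraries may be one between clones. Cells with intact Abl1 were not analysed here, so no value below is an effect of the knockout.

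On GRCm38, the RAS genes lie at chr3:103058285-103067914 (Nras, ENSMUSG00000027852) and chr7:141189105-141194005 (Hras, ENSMUSG00000025499). The RAF genes lie at chrX:20797814-20860519 (Araf, ENSMUSG00000001127) and chr6:39603237-39725463 (Braf, ENSMUSG00000002413). The MEK genes lie at chr9:64185770-64253631 (Map2k1, ENSMUSG00000004936) and chr10:81105915-81133975 (Map2k2, ENSMUSG00000035027), and the ERK1 gene at chr7:126759601-126765819 (Mapk3, ENSMUSG00000063065).

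RAS proteins are small GTPases that switch on below activated receptors, among them the IL-3 receptor. GTP-bound RAS recruits RAF kinases to the membrane, RAF phosphorylates the MEK kinases, and MEK phosphorylates ERK, which enters the nucleus and changes transcription. The cascade is controlled above all by phosphorylation and GTP loading, which RNA-seq does not measure. In bulk samples, fewer cells of a type and less RNA per cell cannot be told apart.

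FPKM is a level scaled to gene length and library size, so a comparison between genes depends on the gene length used. Between 31.4 and 60.4 FPKM were found per library for the MEK pair together and between 38.7 and 60.7 for Mapk3. The RAS pair had 8.76 to 17.9 FPKM and the RAF pair 4.92 to 13.1 FPKM. No member passed the test between Abl1ko/IL3- and Abl1ko/IL3+ cells, and Araf was the only one whose groups did not overlap in scaled counts. Such a lack of overlap was common. Of all genes tested, 19.4% had both Abl1ko/IL3- libraries above both Abl1ko/IL3+ libraries, as Araf did, and 17.9% had them below. Among the pairs, those of RAS and MEK varied most in make-up from library to library within each group. The replicate spread of Nras lay at the 94.9th percentile of all genes tested. Those of Hras, Map2k1 and Map2k2 were less unusual, at the 73.6th, 70.9th and 65.3rd percentiles. The promoters of the RAS and MEK pairs are shown first, because Nras and Map2k1 were both high in the same library where Hras and Map2k2 were low. Braf was also high and Mapk3 slightly below its mean in that library, so this was not particular to these pairs. The part of promoter sequence in it was not tested. Each promoter window runs 5′ to 3′ from 250 bases before to 50 bases after the start of the RefSeq gene (GRCm38.p6). Capitals mark every match, on either strand, to the GC box GGGCGG, the CCAAT box, the E-box CACGTG or the cyclic AMP response element TGACGTCA. These 4 motifs were chosen after the sequences were seen.
Nras, chr3:103058035-103058334, plus strand: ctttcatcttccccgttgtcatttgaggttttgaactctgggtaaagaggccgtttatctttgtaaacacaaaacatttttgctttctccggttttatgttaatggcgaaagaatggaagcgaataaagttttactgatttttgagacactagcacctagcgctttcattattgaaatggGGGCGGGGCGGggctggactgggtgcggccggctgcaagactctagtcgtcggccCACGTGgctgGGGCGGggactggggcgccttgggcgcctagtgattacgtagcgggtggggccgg
Hras, chr7:141193955-141194254, minus strand: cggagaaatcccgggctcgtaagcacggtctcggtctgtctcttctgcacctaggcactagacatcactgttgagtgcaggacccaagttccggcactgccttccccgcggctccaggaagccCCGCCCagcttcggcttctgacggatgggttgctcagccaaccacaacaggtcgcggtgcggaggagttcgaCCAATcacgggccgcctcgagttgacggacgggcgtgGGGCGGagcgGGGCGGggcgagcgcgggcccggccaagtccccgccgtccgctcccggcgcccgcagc
Map2k1, chr9:64253556-64253855, minus strand: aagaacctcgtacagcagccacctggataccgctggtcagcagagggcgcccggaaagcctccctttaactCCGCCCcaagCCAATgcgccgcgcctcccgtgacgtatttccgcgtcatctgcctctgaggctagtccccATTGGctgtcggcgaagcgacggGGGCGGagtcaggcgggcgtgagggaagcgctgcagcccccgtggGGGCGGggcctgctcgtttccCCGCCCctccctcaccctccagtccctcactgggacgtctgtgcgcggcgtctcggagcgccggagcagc
Map2k2, chr10:81105665-81105964, plus strand: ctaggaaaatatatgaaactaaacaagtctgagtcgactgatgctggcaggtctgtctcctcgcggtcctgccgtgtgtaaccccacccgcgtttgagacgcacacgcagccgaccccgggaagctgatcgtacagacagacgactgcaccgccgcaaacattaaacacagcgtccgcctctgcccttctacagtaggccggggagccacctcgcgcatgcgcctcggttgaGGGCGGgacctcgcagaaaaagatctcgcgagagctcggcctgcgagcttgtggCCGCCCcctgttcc

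The promoters of the Nras and Map2k1 genes did not share a motif that those of Hras and Map2k2 lacked. The GC box occurred 3 times in the Nras, 3 times in the Hras, 4 times in the Map2k1 and 2 times in the Map2k2 window, and 35.7% of the 32851 promoters in the RefSeq table held it. The CCAAT box occurred once in the Hras and 2 times in the Map2k1 window (37.4% of all promoters), and the E-box once in the Nras window (7.15%). Braf, whose window is not shown, held 2 copies of the cyclic AMP response element, which 1.79% of promoters held, and Araf held 3 CCAAT boxes. Letters that match are a description of these windows. Of the 7 members, 6 were in the promoter table, and Mapk3 was not.

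The libraries held between 48953174 and 60382588 counts, and the lowest count of any member in any library was 396, so the spread between replicates given below is far above the counting error. Over all genes tested, log2 scaled counts correlated at 0.910 within Abl1ko/IL3+ and at 0.944 within Abl1ko/IL3-. Between the groups the correlations ran from 0.896 to 0.926. The Abl1ko/IL3+ libraries were thus no more alike than some libraries of opposite groups. Abl1 itself had 1322 to 2256 counts, and the counts do not show whether the transcript was edited. The labels call the cells a murine pre-B-cell. Of 10 B lymphoid markers 6 were in the table, with a summed level of 12.5 and 14.6 FPKM in the Abl1ko/IL3+ and 12.1 and 12.2 FPKM in the Abl1ko/IL3- libraries. Of these sums, Cd79b held 10.9 and 6.24 FPKM with IL-3 and 8.60 and 9.77 FPKM without it. Cd79a held 6.41 FPKM in Abl1ko/IL3+ replicate 2, whereas Rag1 had 4 counts in 1 library and 0 in the others. Myeloid progenitor markers summed to 1343 and 897 FPKM with IL-3 and to 668 and 632 FPKM without it, although Kit had at most 4 counts in a library. The 8 mature granulocyte markers summed to 596 and 177 FPKM with IL-3 and to 792 and 4162 FPKM without it. Of these sums, Ngp alone held 541 and 158 FPKM with IL-3 and 427 and 3031 FPKM without it, and its groups overlapped. Of the 7 markers tested, 5 had both Abl1ko/IL3- libraries above both Abl1ko/IL3+ libraries, which 19.4% of all genes tested showed. The 6 mast cell and basophil markers summed to 459 and 63.3 FPKM with IL-3 and to 123 and 117 FPKM without it. The 4 T lymphoid markers in the table summed to 0.174 and 0.303 FPKM in the Abl1ko/IL3+ and to 0.758 and 2.18 FPKM in the Abl1ko/IL3- libraries. Of these, Cd3d (log2 fold change 4.72, adjusted p = 0.815) and Cd3g (2.56, adjusted p = 0.841) were without overlap between the groups, at no more than 170 counts in a library. For both, the Abl1ko/IL3- libraries were the higher ones, which 19.4% of all genes tested showed. Lck, also tested, went the other way with overlapping groups (log2 fold change -1.05, adjusted p = 0.942, edgeR). The part of these cell type markers in the values of the cascade was not tested.

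The level of each gene is described first, from the deposited FPKM values. Mapk3, which encodes the kinase ERK1 at the end of the cascade, stood highest, with 45.9 and 60.7 FPKM in the Abl1ko/IL3+ and 38.7 and 44.4 FPKM in the Abl1ko/IL3- libraries. Its mean over the 4 libraries was 47.4 ± 9.40 FPKM (SD, n = 4), at the 93.3rd percentile of the genes tested. Map2k1, which encodes MEK1, followed with 29.4 ± 16.3 FPKM (SD, n = 4) and Map2k2, which encodes MEK2, with 13.2 ± 4.32 FPKM (SD, n = 4). By their means, Araf (7.64 ± 3.21 FPKM), Nras (7.47 ± 6.35 FPKM) and Hras (5.99 ± 2.18 FPKM) formed a middle group. Braf had the lowest mean with 1.67 ± 0.755 FPKM (SD, n = 4 each), at the 37.0th percentile. In Abl1ko/IL3- replicate 1, however, Nras (1.32 FPKM) was no higher than Braf (1.33 FPKM).

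Most neighbours in this order did not differ beyond their spread. Mapk3 was above Map2k1 in 3 of 4 libraries, and Map2k1 above Map2k2 in 3 of 4 (2 of 4 by counts). Map2k2 was above Araf in all 4 libraries, but by 1.17-fold in the closest one, and the mean log2 ratio of 0.84 was smaller than its SD of 0.97. Araf and Nras, and Nras and Hras, each changed order between libraries (2 of 4 in either order). The step from Hras to Braf was the only one larger than its SD, with Hras higher in 4 of 4 libraries by 1.19-fold to 7.93-fold (mean log2 ratio 1.86, SD 1.20).

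**Figure D1:**
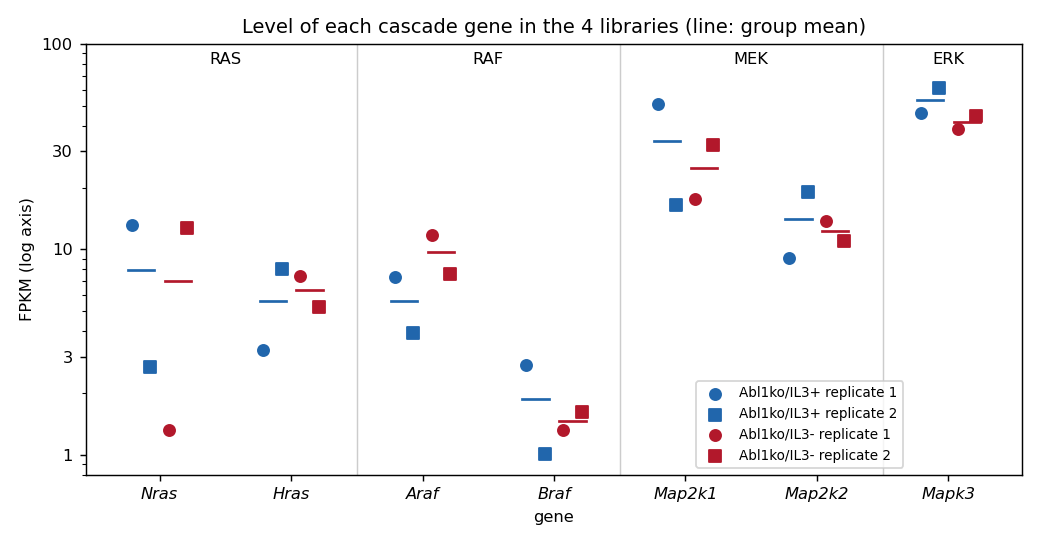
FPKM of each cascade gene (log axis) in the 4 libraries, with a line at the mean of each group; circles are replicate 1 and squares replicate 2. Nras runs from 1.32 to 13.2 FPKM with a high and a low library in each group, whereas Mapk3 stays between 38.7 and 60.7 FPKM.

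Of the RAS genes, Nras varied most. It had 4722 and 971 counts (13.2 and 2.68 FPKM) in Abl1ko/IL3+ replicates 1 and 2, and 396 and 4246 counts (1.32 and 12.7 FPKM) in Abl1ko/IL3- replicates 1 and 2. Each group thus held a high and a low library, and the groups overlapped over nearly the whole range. The replicates differed by 4.93-fold with IL-3 and by 9.64-fold without it, and the pooled replicate SD of 1.87 on the log2 CPM scale lay at the 94.9th percentile of all genes tested. The log2 fold change (Abl1ko/IL3- over Abl1ko/IL3+) was -0.16 (standard error 1.15, 95% interval -3.11 to 2.79, Benjamini-Hochberg adjusted p = 0.997, edgeR). That interval leaves room for a fold change between 0.115 and 6.92. The direction rested on single libraries, with log2 fold changes of 1.20 without Abl1ko/IL3+ replicate 1, 0.69 without Abl1ko/IL3- replicate 1 and -2.46 without Abl1ko/IL3- replicate 2.

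Hras, the other RAS gene, moved in the opposite sense across the libraries. Its counts were 817 and 2032 (3.26 and 8.01 FPKM) with IL-3, and 1558 and 1233 (7.44 and 5.25 FPKM) without it. It was lowest in Abl1ko/IL3+ replicate 1, where Nras was highest, and the groups overlapped. Its log2 fold change was 0.10 (standard error 0.62, 95% interval -1.48 to 1.69, adjusted p = 0.996, edgeR). It turned to -0.46 without Abl1ko/IL3+ replicate 1 and to -0.24 without Abl1ko/IL3- replicate 1.

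As a result, the leading RAS gene of the pair was not the same in all libraries. Nras made up 80.2% of the summed Nras and Hras level (FPKM) in Abl1ko/IL3+ replicate 1 and 70.7% in Abl1ko/IL3- replicate 2. In Abl1ko/IL3+ replicate 2 it made up 25.1%, and in Abl1ko/IL3- replicate 1 only 15.0%. The ratio of Nras to Hras was thus 4.05 in one Abl1ko/IL3+ library, while Hras exceeded Nras by 2.99-fold in the other. The share of Nras was 52.6% ± 39.0 with IL-3 and 42.9% ± 39.4 without it (SD, n = 2 each). The difference of -9.75 percentage points was far within this spread (exact permutation test, two-sided, p = 0.667). With 2 libraries against 2 the smallest p that this test allows is 0.333, so it cannot pass a threshold of 0.05. The summed level of both genes varied less than Nras alone, from 8.76 to 17.9 FPKM, a 2.05-fold range against 10.02-fold for Nras.

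**Figure D2:**
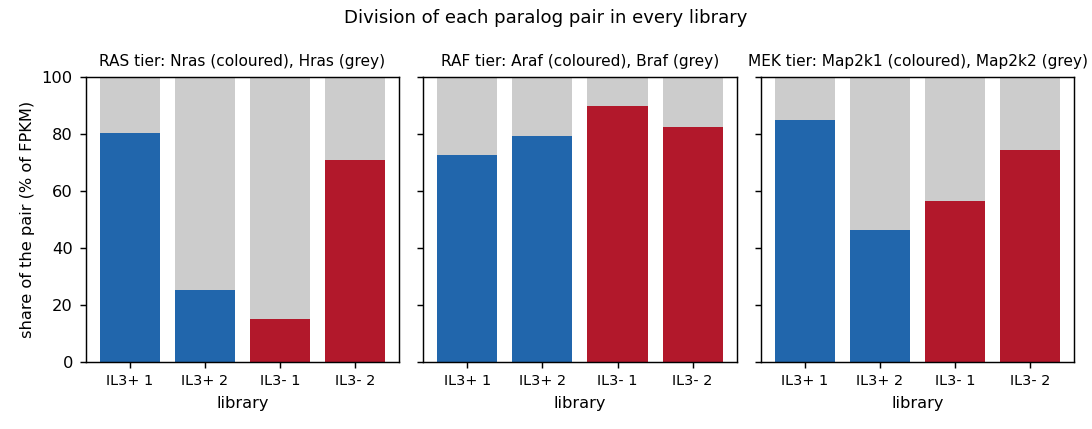
Share of each paralog pair (percent of the summed FPKM of both genes) taken by the first gene (coloured; blue with IL-3, red without) and the second gene (grey) in every library. Nras takes 80.2% and 25.1% of its pair with IL-3 and 15.0% and 70.7% without it, while Araf takes 72.8% to 89.9% of its pair in all 4 libraries.

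RAF kinases are the entry kinases of the cascade, and BRAF is known as the one with the highest basal activity. Araf was above Braf in 4 of 4 libraries. Araf had 3214 and 1739 counts (7.33 and 3.91 FPKM) in replicates 1 and 2 with IL-3, against 4308 and 3117 (11.8 and 7.59 FPKM) without it. As CPM (counts scaled to library size, here after TMM) these were 49.9 and 32.0 under IL-3 against 90.0 and 53.7 in its absence. Both Abl1ko/IL3- libraries stood above both Abl1ko/IL3+ libraries, by a narrow margin between 49.9 and 53.7 CPM. Araf was the only member without overlap in that direction, which 19.4% of all genes tested also showed. Its log2 fold change was 0.81 (standard error 0.43, 95% interval -0.29 to 1.92, unadjusted p = 0.118 and adjusted p = 0.870, edgeR). The size of this change was at the 72.9th percentile of all genes tested. Without Abl1ko/IL3- replicate 1 the log2 fold change was 0.39, and without Abl1ko/IL3+ replicate 1 it was 1.18. In the annotation, 9 exon bases of Araf are shared with Syn1 on the other strand.

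Braf had 2550 and 953 counts (2.74 and 1.01 FPKM) with IL-3, and 1032 and 1400 counts (1.33 and 1.61 FPKM) without it. Both Abl1ko/IL3- libraries lay between those of the Abl1ko/IL3+ group. The log2 fold change was -0.32 (standard error 0.50, 95% interval -1.60 to 0.96, adjusted p = 0.971, edgeR) and turned to 0.40 without Abl1ko/IL3+ replicate 1. Exons of Braf and of Ndufb2 on the other strand share 146 bases, and whether strand was used in counting is not given in the sources used here, so reads from that stretch are uncertain. Araf made up 76.1% ± 4.76 of the summed Araf and Braf level with IL-3 and 86.2% ± 5.20 without it (SD, n = 2 each). This difference of 10.1 percentage points had no overlap between the groups (72.8% and 79.5% against 89.9% and 82.5%) and reached the smallest p the test allows (exact permutation test, two-sided, p = 0.333, adjusted p = 1 over the 3 pairs compared).

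Map2k1 had 11661 and 3770 counts (51.3 and 16.4 FPKM) in replicates 1 and 2 with IL-3, against 3362 and 6822 (17.7 and 32.1 FPKM) without it. As for Nras, Abl1ko/IL3+ replicate 1 was highest, Abl1ko/IL3- replicate 2 came next, and the groups overlapped. The log2 fold change was -0.41 (standard error 0.57, 95% interval -1.89 to 1.06, adjusted p = 0.966, edgeR), and 0.45 without Abl1ko/IL3+ replicate 1. Map2k2 had 3468 and 7318 counts (9.13 and 19.0 FPKM) with IL-3, and 4354 and 3891 counts (13.7 and 10.9 FPKM) without it. Its lowest and its highest library were both Abl1ko/IL3+ libraries, and the lowest was the one with the highest Map2k1. Its log2 fold change was -0.25 (standard error 0.52, 95% interval -1.60 to 1.10, adjusted p = 0.980, edgeR), and 0.56 without Abl1ko/IL3+ replicate 2.

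MEK1 and MEK2 act on the same substrates, the ERK kinases. Map2k1 made up 84.9% and 46.2% of the summed level (FPKM) of both genes with IL-3, and 56.3% and 74.6% without it. The means were nearly equal, at 65.6% ± 27.3 with IL-3 and 65.4% ± 12.9 without it (SD, n = 2 each; exact permutation test, two-sided, p = 1). The ratio of Map2k1 to Map2k2 ran from 0.860 in Abl1ko/IL3+ replicate 2 to 5.62 in Abl1ko/IL3+ replicate 1, so the full range of this ratio fell within the group with IL-3.

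Mapk3 was the steadiest member. It had 6948 and 9304 counts in the cells kept with IL-3 against 4893 and 6288 in those grown without, and its replicate SD of 0.34 on the log2 CPM scale lay at the 31.3rd percentile of all genes tested. In FPKM both Abl1ko/IL3- libraries (38.7 and 44.4) lay below both Abl1ko/IL3+ libraries (45.9 and 60.7). After TMM scaling the groups overlapped, with 107.8 and 171.1 CPM under IL-3 against 102.2 and 108.3 CPM in its absence. The log2 fold change was -0.41 (standard error 0.36, 95% interval -1.34 to 0.53, adjusted p = 0.931, edgeR) and ran from -0.69 to -0.030 when each library was left out, the value nearest 0 being that without Abl1ko/IL3+ replicate 2.

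**Figure D3:**
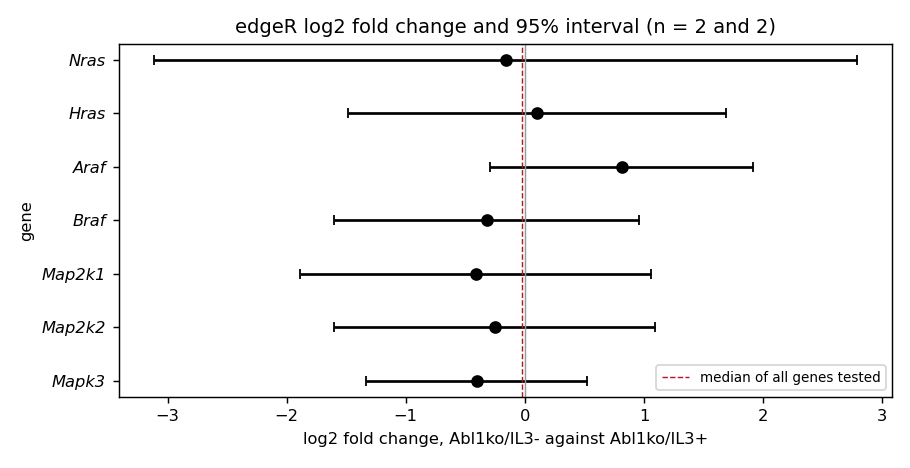
edgeR log2 ratio (Abl1ko/IL3- over Abl1ko/IL3+) of each member (points) with its 95% interval (bars, n = 2 and 2), and the median of all genes tested (dashed line, -0.027). Every interval includes 0; that of Nras is the widest, from -3.11 to 2.79, and that of Mapk3 the narrowest, from -1.34 to 0.53.

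Across the members, 0 of 7 had an adjusted p-value under 0.05 (0% of the 16535 genes tested, edgeR) and 0 of 7 an unadjusted one (5.91% of all genes tested, 978 genes). DESeq2's Wald test called 271 genes and none of the 7. In CPM no member had both Abl1ko/IL3- libraries below both Abl1ko/IL3+ libraries, which 17.9% of all genes tested showed. The median log2 fold change was -0.25, with 2 members above 0 and 5 below, against -0.027 over all genes tested. Without Abl1ko/IL3+ replicate 1 the members' median was 0.40. The summed level of all 7 members was 133 and 112 FPKM under IL-3 against 91.9 and 115 FPKM in its absence.

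The members other than Araf took opposite signs in the Abl1ko/IL3+ libraries, and this division did not hold for all of them in the Abl1ko/IL3- libraries. Relative to each gene's mean log2 CPM, Nras, Map2k1 and Braf were up by 1.29, 0.84 and 0.69 in Abl1ko/IL3+ replicate 1, where Hras, Map2k2 and Mapk3 were at -0.91, -0.60 and -0.15. In Abl1ko/IL3+ replicate 2 the signs were exchanged, with Nras at -0.74, Map2k1 at -0.54 and Braf at -0.48, and with Hras at 0.64, Map2k2 at 0.72 and Mapk3 at 0.52. In Abl1ko/IL3- replicates 1 and 2, Nras stood at -1.85 and 1.29 and Map2k1 at -0.52 and 0.22, whereas Hras stood at 0.44 and -0.17 and Map2k2 at 0.16 and -0.28. Braf (-0.18 and -0.023) and Mapk3 (-0.23 and -0.14) were below their means in both of these libraries. Araf was below its mean in both Abl1ko/IL3+ libraries, with its highest value of 0.77 in Abl1ko/IL3- replicate 1.

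**Figure D4:**
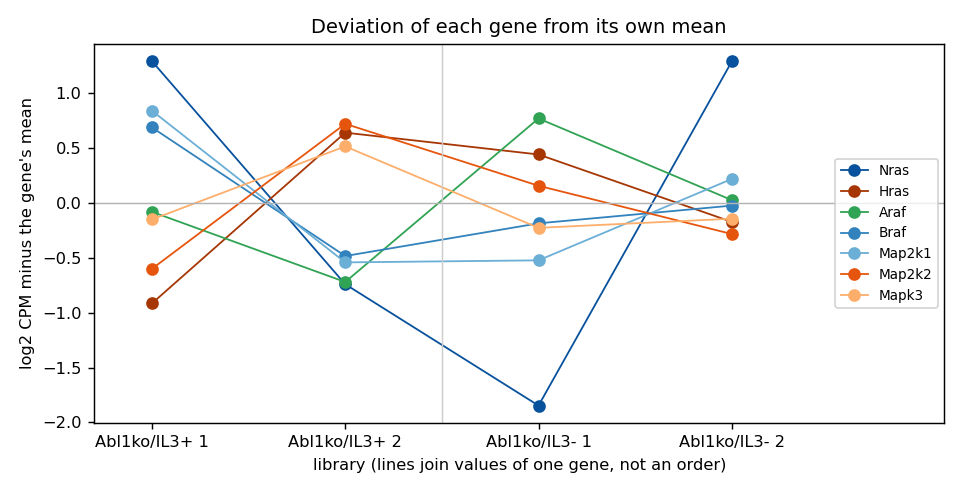
Deviation of each member from its own mean (log2 CPM) in the 4 libraries; lines join the values of one gene. Nras, Map2k1 and Braf (blue) are high in Abl1ko/IL3+ replicate 1 and low in Abl1ko/IL3+ replicate 2, Hras, Map2k2 and Mapk3 (orange) lie the other way, and Nras has the widest swing, from -1.85 to 1.29.

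The GC content of the transcripts differed between the members of opposite sign in the Abl1ko/IL3+ libraries, while their length did not separate them. The longest coding transcripts of Nras and Braf held 42.6% G or C each and measured 4470 and 9728 bases, whereas those of Hras, Map2k2 and Mapk3 held 55.2%, 60.4% and 57.6% and measured 2828, 2405 and 1800 bases. Map2k1 held 51.2% in 2436 bases, nearly the length of Map2k2. Araf held 45.4%, a low GC content. It was below its mean in both Abl1ko/IL3+ libraries, at -0.080 and -0.72, but it was lower in replicate 2, as Nras and Braf were. Over all genes tested, the tertile of lowest GC content had a median deviation of 0.16 in Abl1ko/IL3+ replicate 1 and of -0.23 in replicate 2, and the tertile of highest GC content one of -0.085 and 0.24. By length, the longest tertile had median deviations of 0.27 and -0.18 in the same libraries and the shortest -0.33 and 0.22. In the Abl1ko/IL3- libraries these medians were nearer 0, between -0.051 and 0.11 in all of these tertiles. When the dependence on GC content was removed in each library, a step chosen after seeing the data, Nras stood at 1.11, -0.40, -1.86 and 1.16 in the 4 libraries (with IL-3 replicates 1 and 2, then without). Hras stood at -0.90, 0.51, 0.55 and -0.17 after this step. In Abl1ko/IL3+ replicates 1 and 2, Braf went from 0.69 and -0.48 to 0.50 and -0.15, Map2k2 from -0.60 and 0.72 to -0.49 and 0.49, and Mapk3 from -0.15 and 0.52 to -0.083 and 0.33. Map2k1 went from 0.84 and -0.54 to 0.82 and -0.50, and Araf from -0.080 and -0.72 to -0.18 and -0.55. The part of GC content and length in the differences between libraries was not tested.

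Genes of the pathway lists with the most similar pattern were sought by the root mean square difference of centred log2 CPM over the 4 libraries, among 56 genes for each member. Map2k1 was nearest to the ETS factor gene Etv3 (0.072) and Braf to the exchange factor gene Sos2 (0.090). Mapk3 was nearest to Mknk2 (0.13), Hras to Rasgrp3 (0.15) and Map2k2 to Pebp1 (0.18). Rasgrp3 had only 11 to 23 counts in a library, so its pattern carries a large counting error. Among the members themselves, Hras and Map2k2 were nearest to each other (0.22), as were Braf and Map2k1 (0.22). Nras had no close match, its nearest gene being Mknk1 at 0.72. With 4 libraries such a likeness is a description only.

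The regulators and targets of the cascade were compared next across the same groups, from 8 lists of 60 genes in all. Of these, 53 were in the table and 50 of them passed the filter on low counts. No gene of the 50 passed the adjusted threshold of 0.05, while 2 were under 0.05 unadjusted, both lower without IL-3. In all, 14 had a log2 fold change above 0 and 36 below, with a median of -0.26 against -0.027 for all genes tested. Both Abl1ko/IL3- libraries were below both Abl1ko/IL3+ libraries for 12 of the 50 (17.9% of all genes tested) and above them for 3 (19.4%).

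Exchange factors load RAS with GTP, and of their list 2 of 6 tested genes were above 0 and 4 below (median -0.059). Whether each gene of this list acts on NRAS or HRAS was not tested. Rasgrp2, the one with the highest level, had 9.61 and 8.55 FPKM under IL-3 against 8.94 and 9.10 FPKM in its absence, a log2 fold change of -0.025. Rasgrp4 had the largest positive value (0.22, adjusted p = 0.989) and Rasgef1b the largest negative one (-1.19, adjusted p = 0.947). GTPase activating proteins return RAS to its inactive form, and of their list 2 of 8 tested genes were above 0 and 6 below (median -0.78). Rasa3, the most abundant, had 23.4 and 18.1 FPKM under IL-3 against 17.0 and 2.88 FPKM in its absence (log2 fold change -1.03, adjusted p = 0.920). Nf1, which encodes neurofibromin, had 1709 and 235 counts in the cells kept with IL-3 against 1296 and 1870 in those grown without (log2 fold change 0.94, adjusted p = 0.933), so a single Abl1ko/IL3+ library was low. Dab2ip had 125 and 390 counts against 0 and 27 (log2 fold change -4.25, standard error 1.73, adjusted p = 0.850, edgeR).

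RAS has to be farnesylated, processed and carried to membranes, and the 7 genes of that list were spread around 0, with 3 above, 4 below and a median of -0.0058. Pde6d, which encodes a carrier of prenylated proteins, was the most abundant, with 18.9 and 39.0 FPKM under IL-3 against 23.5 and 38.2 FPKM in its absence (log2 fold change 0.010). Golga7 had the largest positive value (0.40, adjusted p = 0.913) and Icmt, which encodes the methyltransferase of the last processing step, the largest negative one (-0.51, adjusted p = 0.889).

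The shares given for each pair are shares of the 2 named genes, not of the whole tier. All 3 other RAS genes tested had log2 fold changes below 0, and none had an unadjusted p-value under 0.05. Rras was the most abundant, with 18.7 and 40.4 FPKM in the Abl1ko/IL3+ and 22.5 and 37.6 FPKM in the Abl1ko/IL3- libraries (log2 fold change -0.061, adjusted p = 0.998). Rras2 had the largest negative value (-0.40, adjusted p = 0.931). Of the other kinases at the RAF, MEK and ERK steps 3 were tested, and none had an unadjusted p-value under 0.05. Map3k8, which encodes a kinase that can activate MEK, had the largest positive value among them (0.52, adjusted p = 0.966) at 0.326 to 1.07 FPKM.

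The list of scaffolds and RAF regulators held 9 tested genes, with 3 above 0, 6 below and a median of -0.18. Pebp1, which encodes the RAF kinase inhibitor protein RKIP, was the most abundant, with 128.3 and 230.9 FPKM under IL-3 against 227.0 and 178.3 FPKM in its absence (log2 fold change 0.12, adjusted p = 0.991). Cdc37, which encodes a co-chaperone that brings kinases, RAF among them, to HSP90, had 18884 and 31429 counts (34.4 and 56.5 FPKM) with IL-3, and 6712 and 8017 counts (14.6 and 15.6 FPKM) without it. Both Abl1ko/IL3- libraries were well below both Abl1ko/IL3+ libraries. The log2 fold change was -1.65 (standard error 0.44, unadjusted p = 0.014, adjusted p = 0.727, edgeR), so the difference was not called over all genes.

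Downstream of ERK, the 6 tested kinases of the RSK, MSK and MNK families all had log2 fold changes below 0 (median -0.67). None had an unadjusted p-value under 0.05, and 8589 of the 16535 genes tested were also below 0. Both Abl1ko/IL3- libraries were below both Abl1ko/IL3+ libraries for 2 of the 6 (17.9% of all genes tested). Rps6ka1 and Rps6ka5 overlapped between the groups and were highest in Abl1ko/IL3+ replicate 1, at 149.9 and 70.0 CPM. In the other libraries they stood at 82.3 to 91.0 and at 27.9 to 33.2 CPM. Mknk2, the most abundant, had 35.4 and 47.6 FPKM under IL-3 against 36.0 and 32.5 FPKM in its absence (log2 fold change -0.32, adjusted p = 0.951). Rps6ka3, which encodes RSK2, had 5130 and 628 counts in the cells kept with IL-3 against 427 and 562 in those grown without (log2 fold change -2.29, standard error 0.93, adjusted p = 0.850, edgeR), and its large value came from Abl1ko/IL3+ replicate 1. Of the 8 genes listed as transcription factors phosphorylated by ERK, 2 were above 0 and 6 below (median -0.60). Whether ERK itself phosphorylates each of their products was not tested. Srf, the most abundant, had 13.2 and 8.70 FPKM under IL-3 against 8.43 and 9.81 FPKM in its absence, a log2 fold change of -0.27. Ets2 had the largest positive value (1.62, adjusted p = 0.870), with 1187 counts in Abl1ko/IL3- replicate 2 against 152 to 339 in the other libraries. Ets1 had the largest negative value (-3.93, adjusted p = 0.860), with 2403 counts in Abl1ko/IL3+ replicate 1 against 21 to 70 in the others. Erf, which encodes an ETS repressor that ERK expels from the nucleus, had 1322 and 1803 counts in the cells kept with IL-3 against 571 and 643 in those grown without (log2 fold change -1.22, standard error 0.42, unadjusted p = 0.033, adjusted p = 0.815, edgeR), with no overlap between the groups.

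**Figure D5:**
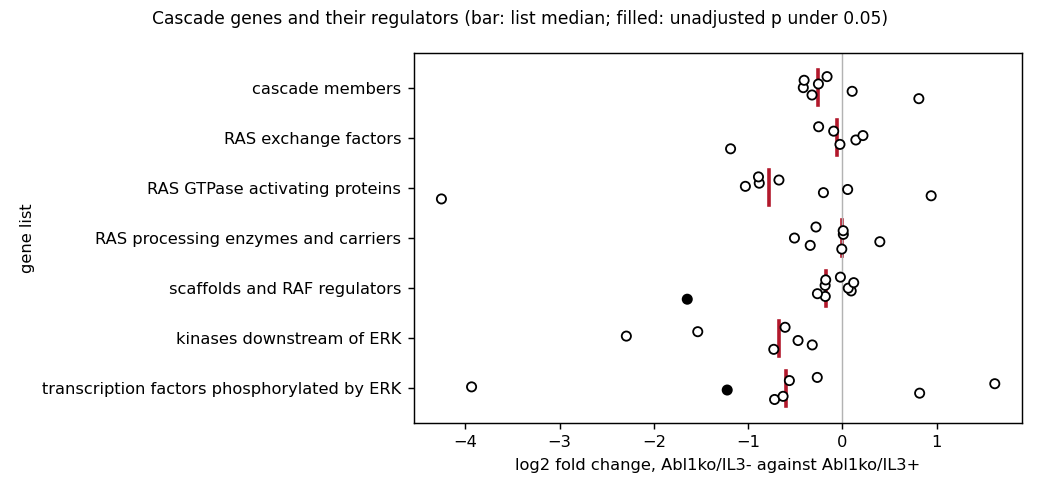
Log2 ratio (Abl1ko/IL3- over Abl1ko/IL3+) for the members and for 6 lists of regulators and targets; each point is a gene, the bar is the median of the list, and filled points have an unadjusted p under 0.05. The filled points are Cdc37 (-1.65) and Erf (-1.22). All 6 kinases downstream of ERK lie below 0, as do 8589 of the 16535 genes tested.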

How the data were processed

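The authors removed ribosomal RNA, sequenced on an Illumina instrument and, by the paper's methods, aligned reads to GRCm38 with Rsubread and summarised them per gene with featureCounts. The submitters' processing notes instead name STAR, Cuffdiff and mm10. Versions are not given in the sources used here. The deposited raw counts were used for tests. The FPKM values, deposited by the authors with no tool stated, were used for levels between genes, for the pair shares and their tests, and for the limma alternatives. Levels between genes and pair shares therefore rest on the gene lengths behind these values.

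Samples were grouped, and replicates numbered, by their titles. Counts were filtered with filterByExpr, scaled by TMM and fitted in edgeR 4.0.16 with its quasi-likelihood model (R 4.3.3, two-sided, Benjamini-Hochberg over all genes tested, threshold 0.05). Standard errors and 95% intervals were derived from each fold change and its F value. Deviations used log2 CPM with a prior count of 2. Pair shares were compared by exact permutation. The steps were run on simulated counts with far less spread between replicates than these libraries have. That run checks that the steps work, and it does not show their power on these data.

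Alternatives were DESeq2 1.42.0, library size only, no filter, 10 counts in every library, a replicate block, limma 3.58.1 on log2(FPKM + 1) and log2(FPKM + 0.1), a threshold of 0.01, shares of counts, and leaving out each library. A crossed pairing and a GC correction (loess, span 0.3) were added after seeing the data. Transcript lengths and GC came from GENCODE M21 and promoters from RefSeq. All member coordinates matched GENCODE M21.

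The members and gene lists were chosen with earlier results of these data known. Genes named from each list were the most abundant, those with the largest rise and fall, and those with an unadjusted p under 0.05. Some genes that this rule or the marker lists would name are not reported here.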

Additional observations from a re-analysis of the deposited data

How the results depend on the processing

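With 2 libraries a group, single libraries set most directions. Without each library in turn, refiltered and with the lone library assumed to vary like the others, the log2 fold change ran from -2.46 to 1.20 for Nras, from -0.46 to 1.09 for Hras, from -0.79 to 0.40 for Braf, from -0.94 to 0.45 for Map2k1 and from -0.76 to 0.56 for Map2k2, all of which changed sign. It ran from 0.39 to 1.18 for Araf and from -0.69 to -0.030 for Mapk3, which did not. The members' median ran from -0.40 to 0.40. The difference in share ran from -37.6 to 18.1 percentage points for Nras, from 6.39 to 13.7 for Araf and from -19.5 to 19.2 for Map2k1. The count of genes called ran from 0 to 22, highest without Abl1ko/IL3- replicate 1, and no pathway list gene was called. DESeq2 called 271 genes, no member and no pathway list gene; the cause was not tested. With the replicate block 0 genes were called (548 with an unadjusted p under 0.05), the members' median was -0.21 and Nras was at -0.55, but same-numbered libraries share only a number (correlation of their deviations -0.194). With the crossed pairing 0 genes were called (1136 unadjusted). After the GC correction Map2k2 was at -0.0072, Mapk3 at -0.21 and Hras at 0.32. In these and the other fits on all 4 libraries each member kept its direction and none was called, which at this sample size is no sign of stability.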
